A study of Saccharomyces cerevisiae with 24 samples.

Results

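The response of a snf1 mutant of Saccharomyces cerevisiae to the limiting nutrient was measured at the high level of inositol and choline, as the level of each transcript under nitrogen (N) limitation minus its level under carbon (C) limitation. It rests on 6 of the 24 arrays of the study, 3 of the N-limited and 3 of the C-limited mutant, chosen by their titles, and covers 5449 S. cerevisiae genes. The study crossed strain (a reference strain or the snf1 mutant), limitation (C or N) and a low or high inositol-choline level in 8 groups of 3 arrays, each hybridised with biotin-labelled total RNA from frozen cells of a steady-state chemostat on minimal medium. Its purpose was to capture how inositol-choline and SNF1 act on lipid synthesis. Besides the 6 arrays, the reference strain under both limitations at the high level and the mutant under both limitations at the low level are used here, to test where the response differs. The sources used here do not state the strain background, the way SNF1 was removed, the growth rate or the concentrations at either level. The labels do not say whether the arrays of a group come from different cultures. The p-values therefore reflect the scatter among these samples alone, part or all of which may be technical. The RNA comes from whole cultures, in which fewer cells that express a gene and less RNA per cell cannot be told apart.

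SNF1 encodes a protein kinase, the yeast counterpart of AMP-activated protein kinase, which is needed to switch on genes for carbon sources other than glucose, largely through the activators Adr1 and Cat8 and by inactivating the repressor Mig1. Under nitrogen limitation the GATA factors Gln3 and Gat1 enter the nucleus and switch on permeases and degradative enzymes for poor nitrogen sources, a regulation known as nitrogen catabolite repression. Under carbon limitation residual glucose in a chemostat is low, and genes of respiration, gluconeogenesis and high-affinity sugar uptake are relieved of glucose repression, for many of which Snf1 is required.

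The labels and the arrays were checked first. For the 6 arrays whose titles name the N-limited mutant, 3 at each level, the description repeats the C-limited text, and the titles were followed. At the high level the nitrogen-regulated genes DAL5, GAP1 and MEP2 were higher on each of these arrays than on each C-limited one, and HXT7 and JEN1, genes of cells short of glucose, were lower (values below). The same order held at the low level, where DAL5 lay at 7.13, 6.98 and 6.96 on the arrays titled C-limited and 11.01, 10.94 and 10.85 on those titled N-limited, and HXT7 at 11.35, 11.35 and 11.45 and 7.26, 6.87 and 7.09. SNF1 itself lay at 4.97, 5.005 and 4.98 (log2) on the C-limited and 4.99, 4.98 and 4.97 on the N-limited arrays, below the floor of 5.56 to 5.61 (the 95th percentile of probe sets for genes of other organisms on the same array). In the reference strain at the same level it lay at 8.30, 8.33 and 8.16 under C limitation and 7.09, 7.93 and 8.47 under N limitation, above all 6 arrays of the mutant. Genes of a cells (MFA1, MFA2, STE2, BAR1, AGA2 and STE6) lay between 8.497 and 11.94 on the 6 arrays, MF(ALPHA)2 was below the floor on all 6, and the alpha-specific STE3, MF(ALPHA)1 and SAG1 lay between 5.65 and 7.87. RNA quality differed between the arrays. For 8 control genes the signal of the 3′ probe sets minus that of the 5′ ones, which grows as RNA is degraded or labelled incompletely, was 2.63, 1.57 and 1.13 (log2) on N-limited arrays 1, 2 and 3 and 1.16, 1.16 and 1.06 on the C-limited ones. The SD of the differences over genes was 0.45 and 0.49 between N-limited array 1 and the others, 0.16 between arrays 2 and 3, and 0.07 between C-limited arrays. One estimate of the spread per gene is shared by all 8 groups, so for the N-limited arrays at the high level, which scatter more, it is likely an underestimate. Values are therefore given with and without N-limited array 1 wherever its removal changes a call or moves a fold by over 1.5 times. For SPS100 only the arrays and the lost call are given. Smaller shifts, some of which turn the sign of a difference near 0, are not all given. Array quality and limitation move together here, and their parts cannot be told apart beyond these comparisons.

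**Figure D1:**
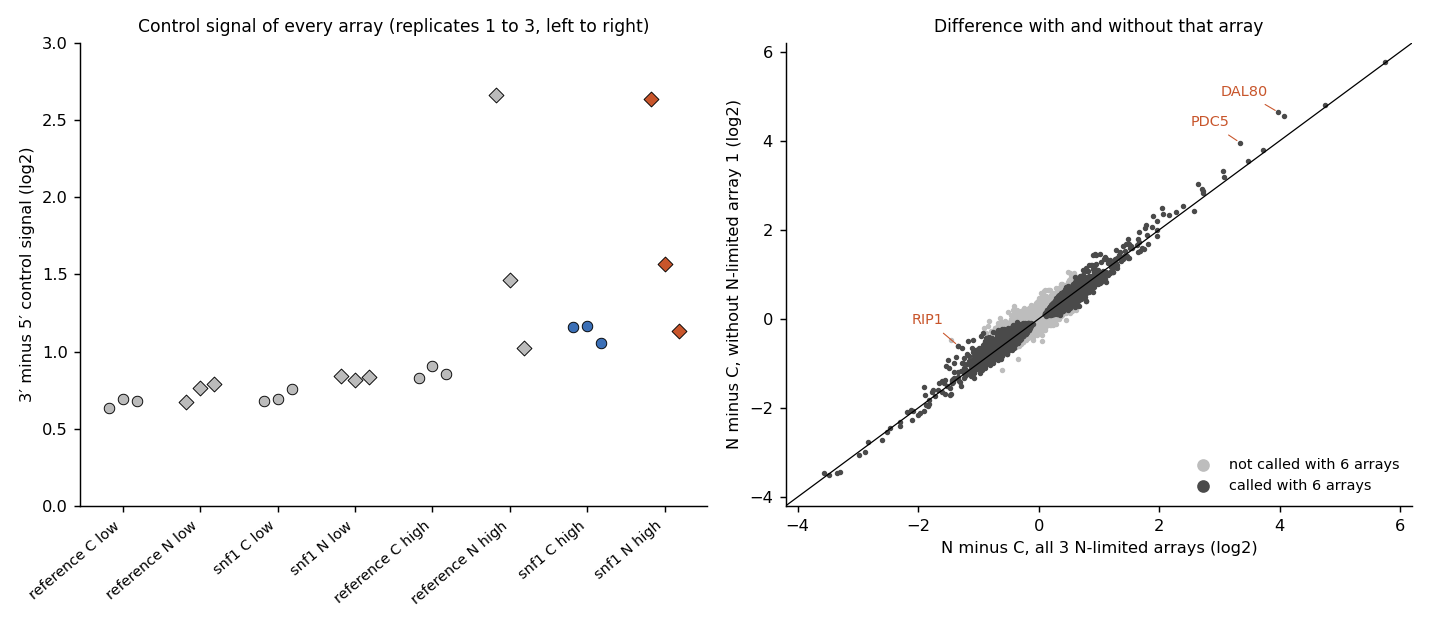
Left: signal of 3′ minus 5′ probe sets, mean of 8 control genes (log2), on each of the 24 arrays, circles for C-limited and diamonds for N-limited groups, with the arrays compared in colour. Right: N minus C difference (log2) of 5449 genes in the snf1 mutant at high inositol-choline, with all 3 N-limited arrays (horizontal) and without array 1 (vertical), the line marking equal values. Array 1 of both N-limited groups at the high level stands apart at 2.63 and 2.66, and DAL80 and PDC5 lie above the line, with larger rises when it is left out.

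Of 5449 genes 2650 (48.6%) were called at an adjusted p under 0.05 (limma, Benjamini-Hochberg over all genes), 1444 higher (26.5%) and 1206 lower (22.1%) under N limitation. Counts of list members below are to be read against these shares. By 2-fold or more 102 rose (1.87%) and 120 fell (2.20%), and by 4-fold or more 19 rose and 16 fell. The median difference over all genes was 0.03 (log2), and the interquartile range ran from -0.22 to 0.25. All N-limited arrays lay above all C-limited ones in 1581 genes and below them in 1365, together 54.1%. Without N-limited array 1 the count was 2635, of which 2216 were called in the same direction with it and 0 in the opposite one, while 434 calls were lost and 419 gained. Fitted on the 6 arrays alone, without the spread of the other groups, 1656 genes were called (861 higher, 795 lower), and 1644 of these are among the 2650. The same fit without array 1, on 5 arrays, called 3448 (1846 higher, 1602 lower). Of the 222 genes called at 2-fold or more, 213 were also called on the 6 arrays alone, and 217 in the same direction without array 1. Of 1746 probe sets without a S. cerevisiae gene 0 were called by limma, and 216, a share above 0.05, had an unadjusted p under 0.05. They were fitted and adjusted apart from the genes, so the 0 does not give their share at the cut-off of the genes. Of the genes named below, DAL1 and MIG3 under C limitation and CIT3, FDH1 and NCA3 under N limitation were below the floor on 1 array of 3, and FDH1 was within 0.011 (log2) of it on the other 2, so no fold is given for FDH1. Others, such as OPT2, HXT1, DAL80 and MLS1 under C limitation, lay above the floor but near it, so their folds are less exact. Errors after ± below are standard errors of log2 differences from this fit, with n = 3 arrays per group.

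The rises were led by genes for the uptake and use of nitrogen sources. OPT2, an oligopeptide transporter gene, lay at 5.74, 5.78 and 5.70 (log2) on the C-limited arrays and at 11.44, 11.48 and 11.54 on the N-limited ones, 53.7-fold higher (5.75 ± 0.08, adjusted p = 1.17e-20). DAL5, the allantoate permease gene, rose from 6.97, 6.89 and 6.83 to 11.55, 11.67 and 11.72 (4.75 ± 0.07, 26.9-fold, adjusted p = 1.53e-20). In both genes the lowest N-limited array was more than 4 log2 units above the highest C-limited one, and array 1 lay close to the others. GAP1, the general amino acid permease gene, rose 11-fold, from 8.12, 8.13 and 8.06 to 11.41, 11.56 and 11.73. MEP2, the high-affinity ammonium permease and sensor gene, rose 8.41-fold, from 9.06, 9.04 and 9.01 to 11.87, 12.21 and 12.25. DAL80, which encodes a GATA repressor that is itself under this regulation, showed a larger spread: 5.75, 5.79 and 5.81 on the C-limited arrays and 8.44, 10.45 and 10.40 on the N-limited ones, with array 1 about 2 log2 units below the others. Its difference was 3.98 ± 0.39 with all arrays and 4.64 without array 1 (adjusted p = 9.06e-08 and 1.21e-10).

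**Figure D2:**
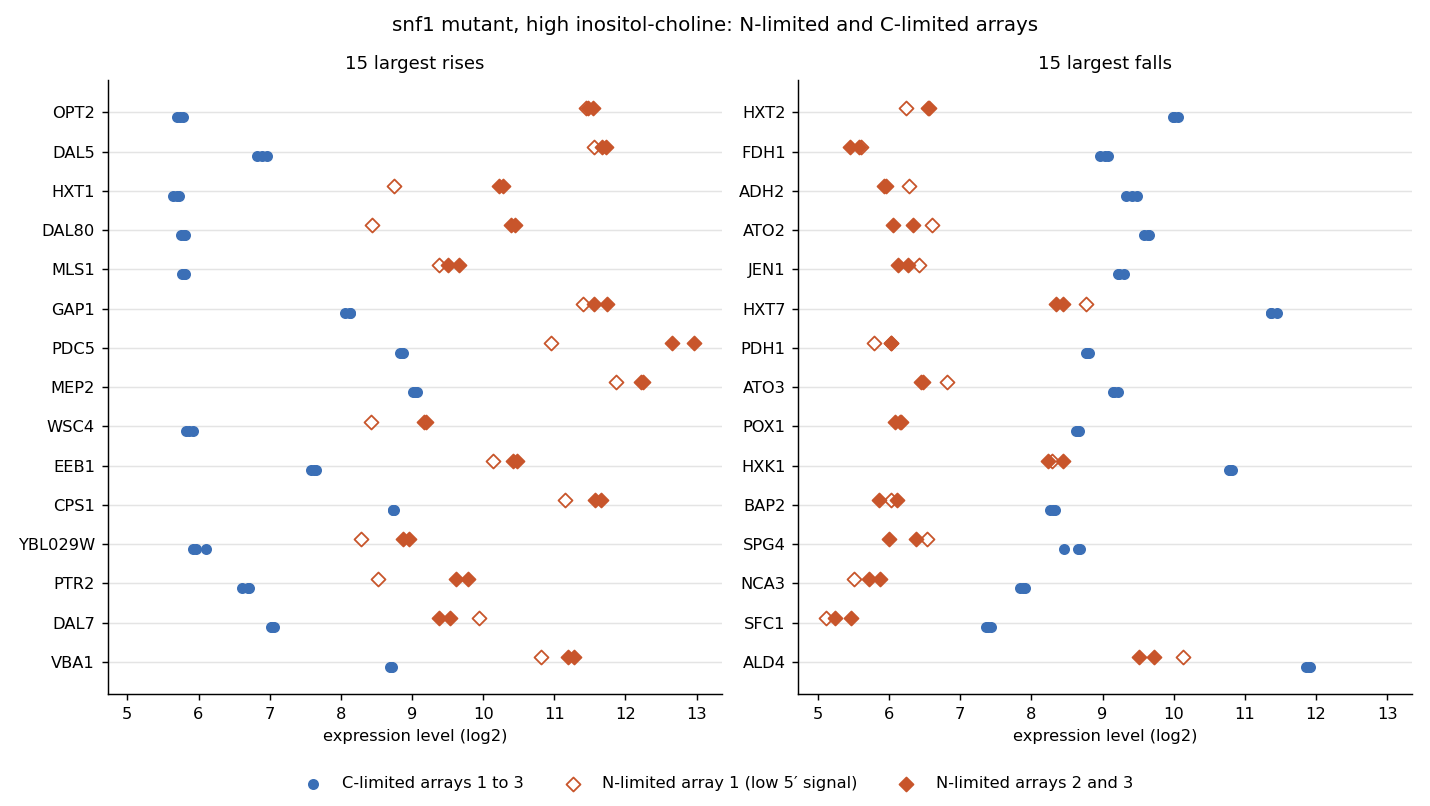
Expression level (log2) on each array for the 15 genes with the largest rise (left) and the 15 with the largest fall (right) among called genes with no overlap between the groups. Circles are the 3 C-limited arrays, filled diamonds N-limited arrays 2 and 3, and open diamonds N-limited array 1. The C-limited arrays lie close together in every gene shown, while array 1 stands apart from arrays 2 and 3 in HXT1, DAL80 and PDC5.

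Permeases moved in both directions. Of 33 permease genes 19 rose, 8 fell and 6 did not pass the test (23 and 7 without array 1), with a median of 0.53 (log2). Besides those above, PTR2, the di- and tripeptide transporter gene, rose by 2.64, DUR3 for urea by 2.28, PUT4 for proline by 2.16, OPT1 for glutathione and oligopeptides by 1.89, DIP5 for glutamate and aspartate by 1.80, MUP3, a low-affinity methionine permease gene, by 1.26 and FCY2 for purines and cytosine by 1.07. MEP3, a low-affinity ammonium permease gene, rose by 0.83; MEP1 stood at 0.34 (adjusted p = 0.24) and was called only without array 1 (0.69, adjusted p = 0.00455), with N-limited arrays at 8.14, 9.29 and 9.14 against 8.52, 8.504 and 8.53. The same held for CAN1, the arginine permease gene (0.53, adjusted p = 0.0968, and 0.91, adjusted p = 0.00158, without array 1). Most of the larger falls were in permeases for single amino acids or a few of them. BAP2, for branched-chain amino acids, fell from 8.31, 8.26 and 8.33 to 6.03, 5.86 and 6.11 (-2.30 ± 0.09, 4.93-fold lower), GNP1 for glutamine was 2.93-fold lower, HIP1 for histidine 2.29-fold and TAT2 for tryptophan 1.63-fold. AGP1, a broad-range amino acid permease gene induced by external amino acids, stood at 0.26 and did not pass the test (adjusted p = 0.105; 0.38 and 0.0253 without array 1).

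Genes for allantoin, a storage compound rich in nitrogen, rose as a block. All 8 measured genes of allantoin and urea use were called higher, with a median of 1.73 (1.996 without array 1). DAL7, which encodes a malate synthase that removes the glyoxylate formed from allantoin, lay at 7.04, 7.02 and 7.06 and at 9.94, 9.54 and 9.38 (2.58 ± 0.13, 5.99-fold); here array 1 was the highest of the N-limited arrays. DAL1 (allantoinase) rose by 1.49, DAL2 (allantoicase) by 1.48, DAL3 (ureidoglycolate lyase) by 1.19 and the permease gene DAL4 by 1.96. DAL1, DAL4, DAL2, DCG1, DAL7 and DAL3 follow one another on chromosome IX in the RefSeq annotation, and all 6 were called higher, DCG1 by 0.73. The flanking genes were not called higher: YVH1, next to DAL1, was at -0.52, and MGA2, next to DAL3, at 0.09 (adjusted p = 1.31e-05 and 0.301; chosen for their place after their values were seen).

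Of 11 GATA factors and regulators 8 rose, 0 fell and 3 did not pass the test (9 and 1 without array 1). GAT1, the GATA activator gene, rose from 9.08, 8.97 and 9.05 to 10.21, 10.47 and 10.32 (1.30 ± 0.10, 2.46-fold). NPR1, a kinase that keeps permeases at the cell surface, rose by 0.95, and NPR2 and NPR3, subunits of a complex that restrains the TOR kinase when amino acids are short, by 0.54 and 1.06. The transcript of GLN3, the second activator, stood at -0.13 (adjusted p = 0.0784) and that of URE2, which holds Gln3 in the cytoplasm, at -0.07 (adjusted p = 0.705). URE2 lay at 8.55, 7.79 and 7.86 on N-limited arrays 1, 2 and 3 and at 8.21, 8.07 and 8.11 under C limitation: without array 1 the difference was -0.31 (adjusted p = 0.00513).

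Enzymes that release or assimilate ammonium did not move as one. Of 25 measured genes 8 rose, 6 fell and 11 did not pass the test (11 and 6 without array 1), with a median of 0.10. PUT1, proline oxidase, rose by 1.66, AMD2, a putative amidase gene, by 1.19, GLT1, glutamate synthase, by 0.81 and ASP3-1, an extracellular asparaginase, from 10.39, 10.38 and 10.39 to 11.60, 11.67 and 11.68 (1.26 ± 0.05); ASP3-1 has near-identical copies that were not measured apart. The next step of proline use was less clear: PUT2 lay at 8.30, 9.78 and 9.89 on the N-limited arrays against 8.80, 8.86 and 8.75, at 0.52 with array 1 (adjusted p = 0.184) and 1.03 without it (adjusted p = 0.00174). The cytosolic asparaginase gene ASP1 fell by 1.08, and the arginine-degrading CAR1 (arginase) and CAR2 (ornithine transaminase) by 1.15 and 1.06. ARO9 and ARO10, which break down aromatic amino acids, fell by 1.82 and 1.41 (3.53-fold and 2.66-fold lower). GDH1, the main glutamate dehydrogenase gene for ammonium assimilation, rose by 0.29 (adjusted p = 0.00874). GLN1, glutamine synthetase, stood at -0.04 (adjusted p = 0.908), with arrays at 10.08, 11.03 and 11.28 against 10.82, 10.82 and 10.86, and at 0.32 without array 1 (adjusted p = 0.0985). Some alternative fits called it higher (below).

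Vacuolar protease genes rose and genes of amino acid synthesis fell. Among 8 measured vacuolar protease genes 6 rose and 0 fell (8 and 0 without array 1), led by CPS1, carboxypeptidase S, from 8.74, 8.73 and 8.73 to 11.15, 11.65 and 11.57 (2.72 ± 0.11, 6.59-fold). APE1, aminopeptidase I, rose by 1.35 and PEP4, the proteinase that activates the others, by 0.57. PRB1, proteinase B, lay at 9.02, 10.70 and 10.69 on N-limited arrays 1, 2 and 3, against 9.67, 9.65 and 9.63 under C limitation, and was called only without array 1 (1.04, adjusted p = 0.0144). VBA1, a vacuolar transporter gene for basic amino acids, rose 5.24-fold. Of 33 autophagy genes 14 rose and 2 fell (16 and 2 without array 1): ATG32, the receptor for mitochondria, rose by 0.91 and ATG8, the tag of the autophagosome membrane, by 0.79, while the kinase gene ATG1 stood at -0.21 (adjusted p = 0.417) and at 0.06 without array 1.

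In amino acid synthesis under the activator Gcn4 34 of 48 measured genes fell, 2 rose and 12 did not pass the test (36 and 1 without array 1), with a median of -0.58 (-0.47). ARO4, an entry enzyme of aromatic amino acid synthesis, lay at 9.80, 9.76 and 9.80 and 7.70, 8.31 and 8.40, 3.13-fold lower under N limitation. HOM2 and HOM3 of threonine and methionine synthesis were 3.05-fold and 2.66-fold lower, SER3 of serine synthesis 2.77-fold, TRP4 of tryptophan synthesis 2.52-fold and LYS20 of lysine synthesis 2.09-fold. On none of these 6 genes did an N-limited array reach the lowest C-limited one. The GCN4 transcript itself stood at 0.17 (adjusted p = 0.254).

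Among glucose carriers HXT1 and HXT3 rose and HXT2 and HXT7 fell. HXT1, the low-affinity glucose transporter gene, lay at 5.64, 5.70 and 5.72 under C limitation and at 8.75, 10.28 and 10.22 under N limitation (4.07 ± 0.26, 16.7-fold; 4.56 without array 1). HXT3, another low-affinity carrier, rose by 2.04 (2.48). HXT2, a high-affinity carrier, fell from 10.06, 10.004 and 9.99 to 6.24, 6.55 and 6.56 (-3.57 ± 0.17, 11.9-fold lower). HXT7 fell from 11.37, 11.37 and 11.46 to 8.76, 8.45 and 8.35 (-2.88 ± 0.10); its near-identical neighbour HXT6 was not measured apart. The groups do not overlap in any of the 4 genes. Over the 21 hexose transporters and glucose sensors 5 rose, 5 fell and 11 did not pass the test (5 and 6 without array 1), and 8 of them were below the floor on all 6 arrays; HXT4 rose by 0.70 and HXT5 fell by 0.74. MIG2 and MIG3, genes of repressors that act in glucose repression, rose with HXT1 and HXT3, by 1.67 and 1.54. STD1, a regulator of the Rgt1 repressor, rose by 1.15, while its paralog MTH1 fell by 0.86 and MIG1 stood at 0.23 (adjusted p = 0.0668). In sucrose, maltose and galactose use 6 of 15 genes rose and 5 fell (6 and 6 without array 1). SUC2, invertase, fell by 1.30 and MAL32, maltase, by 1.87 (not measured apart from MAL12). HXK1, the hexokinase gene repressed by glucose, fell from 10.78, 10.82 and 10.79 to 8.30, 8.45 and 8.24 (-2.47 ± 0.11, 5.54-fold lower).

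Of 22 hexokinase and glycolysis genes 8 fell, 0 rose and 14 did not pass the test, and without array 1 4 fell. TDH3, CDC19 and PGK1 of the lower pathway stood at -0.37, -0.02 and -0.20 (adjusted p = 0.149, 0.842 and 0.144). Without array 1 they stood at -0.07, 0.04 and -0.12. PDC5, a pyruvate decarboxylase isoenzyme, was 10.1-fold higher, at 10.95, 12.65 and 12.96 against 8.83, 8.85 and 8.87 (3.34 ± 0.41; 3.96 without array 1), and PDC6 rose by 1.53, whereas the main isoenzyme PDC1 rose by 0.29. ADH2, the alcohol dehydrogenase that oxidises ethanol, fell from 9.33, 9.48 and 9.41 to 6.28, 5.96 and 5.93 (-3.35 ± 0.37, 10.2-fold lower). ALD4, mitochondrial aldehyde dehydrogenase, was 4.3-fold lower and ACH1, a CoA transferase gene, 2.98-fold. Of the 24 alcohol, pyruvate and acetaldehyde genes 4 rose and 9 fell (4 and 10 without array 1).

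Gluconeogenesis and the glyoxylate cycle divided. Of 21 genes 14 fell, 2 rose and 5 did not pass the test (14 and 1 without array 1), with a median of -0.42. JEN1, the lactate and pyruvate carrier gene, fell from 9.22, 9.30 and 9.23 to 6.42, 6.26 and 6.13 (-2.98 ± 0.15, 7.89-fold lower). SFC1, the mitochondrial succinate-fumarate carrier gene, was at 7.39, 7.36 and 7.43 under C limitation and below the floor on the 3 N-limited arrays, at least 3.51-fold lower, and ACS1, acetyl-CoA synthetase, was 3.4-fold lower. Of the 2 enzymes of the glyoxylate bypass 1 was called. MLS1, malate synthase, rose from 5.80, 5.81 and 5.77 to 9.38, 9.66 and 9.501 (3.72 ± 0.12, 13.2-fold, adjusted p = 2.77e-14), with no overlap and array 1 close to the others. ICL1, isocitrate lyase, lay at 6.55, 6.53 and 6.50 and 6.50, 6.71 and 6.40 (0.01 ± 0.12, adjusted p = 0.941). PCK1, the gluconeogenic PEP carboxykinase gene, stood at 0.06 (adjusted p = 0.521), and FBP1, fructose-1,6-bisphosphatase, lay near the floor on the C-limited arrays and below it on the N-limited ones (5.61, 5.64 and 5.55 and 5.20, 5.38 and 5.31). CAT8 and ADR1, the activators of these genes, fell by 0.24 and 0.89.

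Genes of fatty acid oxidation fell. Of 24 genes of the carnitine shuttle and peroxisomal beta-oxidation 17 fell and 3 rose (16 and 4 without array 1), with a median of -0.58. POX1, acyl-CoA oxidase, fell from 8.66, 8.63 and 8.66 to 6.17, 6.15 and 6.09 (-2.52 ± 0.09, 5.72-fold lower), FOX2, the multifunctional enzyme, was 3.05-fold lower, POT1, thiolase, 2.28-fold, and CTA1, peroxisomal catalase, at least 3.55-fold, being below the floor on the N-limited arrays. FAA1, an acyl-CoA synthetase gene that also serves lipid synthesis, rose by 0.48. In the methylcitrate cycle of propionate use PDH1 fell from 8.79, 8.77 and 8.80 to 5.79, 6.03 and 6.02 (7.15-fold lower) and CIT3 was 2.89-fold lower, 3 of 4 measured members falling and 0 rising.

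Respiratory genes fell. Of 18 measured genes of the tricarboxylic acid cycle 14 fell and 0 rose (12 and 0 without array 1), with a median of -0.57. Of 37 subunits of the respiratory chain and ATP synthase 29 fell and 3 rose (23 and 2), with a median of -0.47. HAP4, the regulatory subunit of the activator of respiratory genes, fell from 9.52, 9.48 and 9.51 to 8.88, 8.65 and 8.59 (-0.79 ± 0.07). NDE1, an external NADH dehydrogenase gene, was 2.18-fold lower, CYC1, cytochrome c, 1.81-fold and SDH2 of succinate dehydrogenase 2.92-fold. The isoforms of low oxygen went the other way: COX5B rose by 0.79 and CYC7 by 0.79, whereas their partners COX5A and CYC1 fell by 0.84 and 0.86. Several of the largest falls here were smaller without array 1. RIP1 lay at 7.30, 9.27 and 9.67 on the N-limited arrays against 10.03, 10.10 and 10.09, and its difference changed from -1.33 to -0.61 without array 1 (adjusted p = 0.0143 and 0.103). ATP2, ATP3 and COX4 likewise changed from -1.27, -1.09 and -1.17 to -0.66, -0.48 and -0.50 and were no longer called. RIP1 is also one of the 8 control genes whose 5′ signal was low on array 1.

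**Figure D3:**
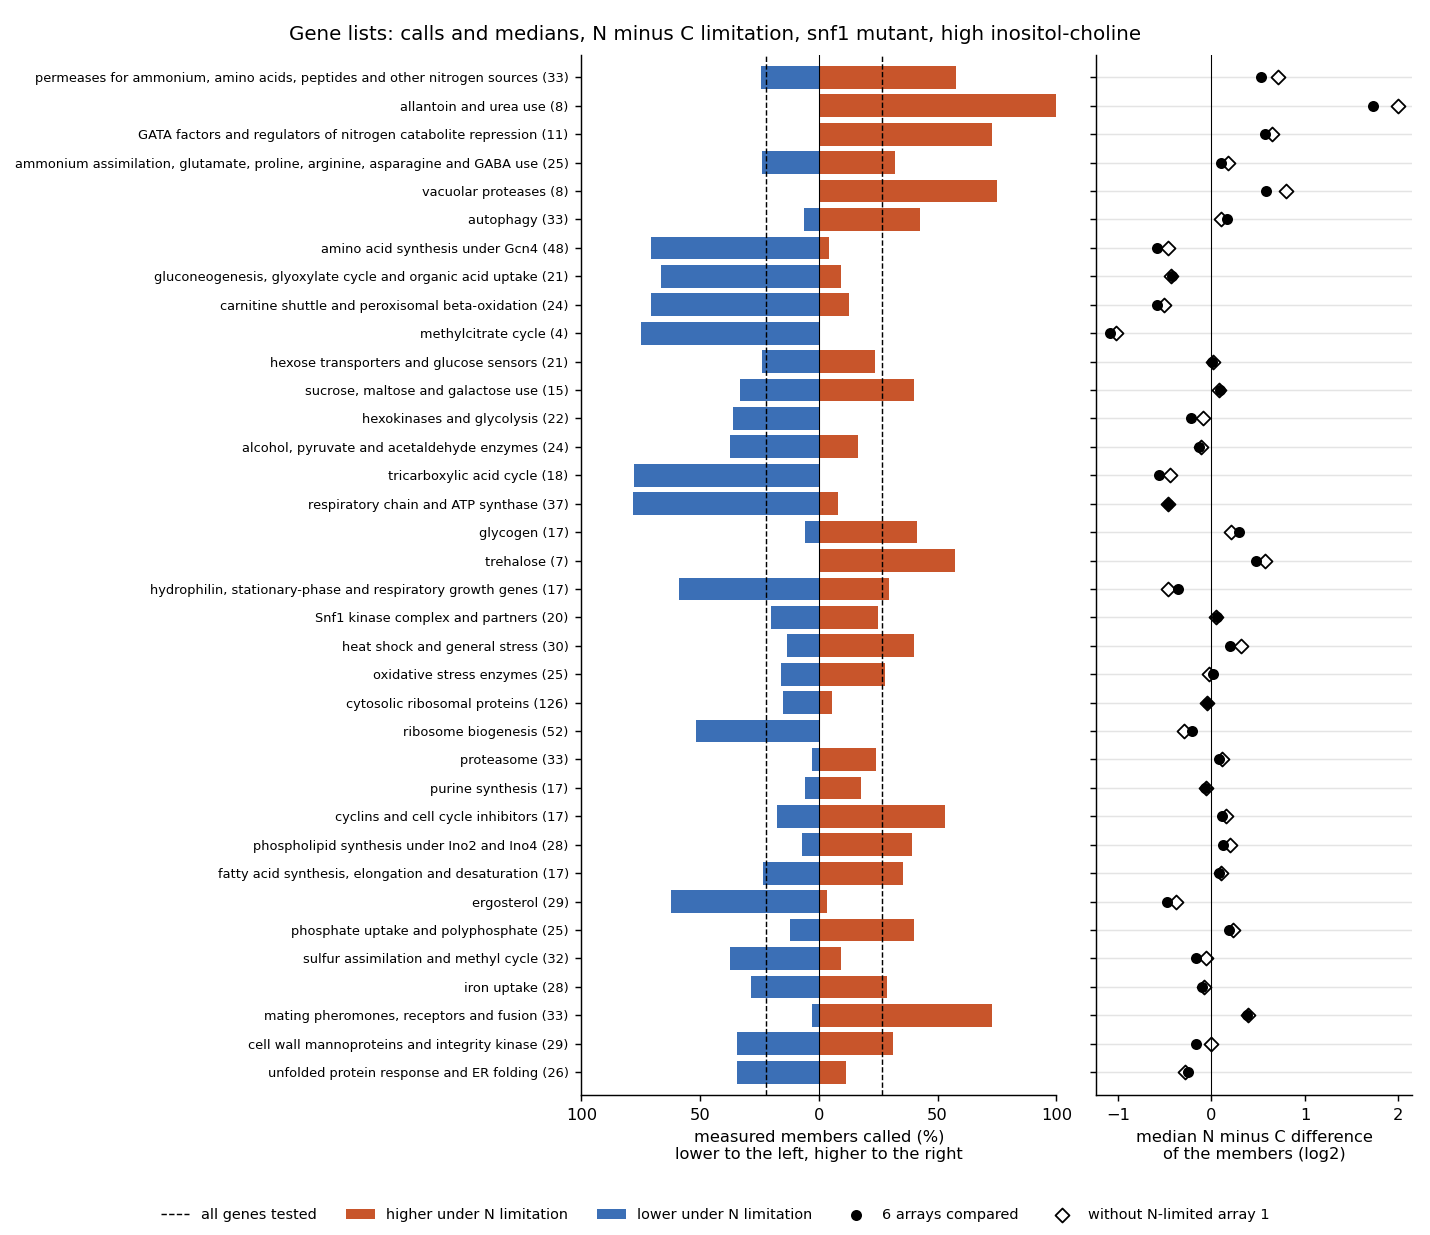
Left: share of the measured members of each gene list called higher (right of 0) or lower (left of 0) under N limitation, in percent, with dashed lines at the shares over all genes tested, 26.5% and 22.1%. Right: median N minus C difference (log2) of the members, with the 6 arrays (filled circles) and without N-limited array 1 (open diamonds). Numbers in brackets are measured members. Allantoin use has the highest median and the methylcitrate cycle the lowest, and the median of 1 list, oxidative stress enzymes, changes sign without array 1 (0.02 and -0.02).

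Several storage carbohydrate genes rose. Of 17 glycogen genes 7 rose and 1 fell (8 and 2 without array 1), and of 7 trehalose genes 4 rose and 0 fell (5 and 0). Called in either direction were 47.1% and 57.1% of them, against 48.6% of all genes. GPH1, glycogen phosphorylase, lay at 7.60, 7.57 and 7.54 and 9.03, 9.09 and 8.76 (1.39 ± 0.09, 2.62-fold), and GLC3, the branching enzyme, rose by 0.63. Genes of hydrophilins and stationary phase were mixed, with 5 rises and 10 falls among 17 (5 and 10 without array 1). FDH1, formate dehydrogenase, fell from 9.04, 8.96 and 9.07 to 5.60, 5.45 and 5.57 (-3.48 ± 0.17; its copy FDH2 was not measured apart), SPG4 was 4.91-fold lower, and HSP12, a membrane-protecting stress protein gene, rose by 0.72. In the list of heat shock and general stress 12 of 30 rose and 4 fell (15 and 2 without array 1), 53.3% called against 48.6% of all genes. DDR48 rose by 1.21, CTT1, cytosolic catalase, by 1.12 and the disaggregase gene HSP104 by 0.86. HSP26, a small heat shock protein gene, was called lower (-0.92, adjusted p = 0.0465) only with array 1 (N-limited arrays at 8.58, 10.55 and 10.29), and was not called without it (-0.31, adjusted p = 0.369). Of 25 oxidative stress enzymes 7 rose and 4 fell, and of 20 genes of the Snf1 complex and its partners 5 rose and 4 fell (6 and 4, and 5 and 4, without array 1). With 44% and 45% called, both lists lay near the 48.6% of all genes. Of 17 purine synthesis genes 3 rose and 1 fell (3 and 0), 23.5% called against 48.6% of all genes.

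Ribosome biogenesis genes fell. Of 52 ribosome biogenesis genes 27 fell and 0 rose (36 and 1 without array 1), with a median of -0.21; UTP4 and NOP2, factors of rRNA processing, fell by 0.80 and 0.66. Of 126 measured ribosomal protein genes 19 fell and 7 rose (15 and 2 without array 1), a smaller share than among all genes, with a median of -0.05. Of 33 proteasome genes 8 rose and 1 fell (10 and 0), 27.3% called against 48.6% of all genes. RPN2 of the base rose by 0.62. Among 17 cyclins and cell cycle inhibitors 9 rose and 3 fell (7 and 1 without array 1). FAR1, an inhibitor of the G1 cyclin kinase, rose from 6.72, 6.77 and 6.71 to 7.86, 8.80 and 8.86 (1.78 ± 0.22), SIC1, another inhibitor, by 0.49, and the G1 cyclin gene CLN2 fell by 0.63.

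Mating genes rose. Of 33 genes for pheromones, receptors and fusion 24 rose, 1 fell and 8 did not pass the test (27 and 1 without array 1), with a median of 0.38. MFA1 and MFA2, the a-factor genes, rose from 10.44, 10.48 and 10.50 to 11.94, 11.90 and 11.64 and from 10.36, 10.41 and 10.41 to 11.75, 11.87 and 11.66 (1.36 ± 0.08 and 1.37 ± 0.07). STE6, the a-factor exporter, rose by 1.30 and AGA1, an agglutinin anchor gene, by 0.87. The single fall was STE3, the receptor gene of alpha cells, at -0.21. It did not stand for the alpha-specific genes: MF(ALPHA)1 and SAG1 rose by 1.39 and 0.80, and MF(ALPHA)2 was below the floor.

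Lipid synthesis is the subject of the study. Of 28 phospholipid genes under Ino2 and Ino4 11 rose, 2 fell and 15 did not pass the test (13 and 1 without array 1), with a median of 0.12. INO1, inositol-3-phosphate synthase, lay at 7.26, 7.29 and 7.35 and 8.02, 7.28 and 7.04 and did not pass the test (0.14 ± 0.16, adjusted p = 0.47; -0.14 without array 1, adjusted p = 0.213). ITR1, the inositol transporter gene, rose by 0.44, OPI3 and CHO2, the methyltransferases of phosphatidylcholine synthesis, by 0.47 and 0.62, and CKI1, choline kinase, by 0.57, while CHO1, phosphatidylserine synthase, stood at -0.10 (adjusted p = 0.222). In ergosterol synthesis 18 of 29 genes fell and 1 rose (20 and 1 without array 1), with a median of -0.47. CYB5, cytochrome b5, an electron donor in sterol and lipid synthesis, fell from 10.15, 10.09 and 10.21 to 8.87, 9.18 and 9.18 (-1.07 ± 0.08), ERG6, the sterol C-24 methyltransferase gene, by 0.84, and HMG2, the HMG-CoA reductase isoenzyme of low oxygen, rose by 0.60. Of 17 genes of fatty acid synthesis 6 rose and 4 fell (7 and 2 without array 1). EEB1, which makes ethyl esters of medium-chain fatty acids, rose from 7.58, 7.62 and 7.65 to 10.14, 10.47 and 10.41 (2.73 ± 0.09, 6.62-fold).

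Among nutrients other than carbon and nitrogen, phosphate genes split into the polyphosphate polymerase subunits VTC1, VTC2 and VTC4, which rose by 0.84, 0.69 and 0.63, and the phosphate transporter genes PHO84 and PHO89, which fell by 1.23 and 0.59. In all 10 of 25 rose and 3 fell (14 and 3 without array 1). In sulfur assimilation 12 of 32 fell and 3 rose (9 and 4 without array 1), SUL1, the sulfate permease gene, from 10.42, 10.37 and 10.40 to 8.34, 8.72 and 8.87 (-1.75 ± 0.18). Of 28 iron genes 8 rose and 8 fell (6 and 9 without array 1): FET4, a low-affinity iron transporter gene, rose by 1.41, SIT1, a siderophore transporter gene, by 1.03, and FTR1, the high-affinity iron permease gene, fell by 1.13. In the cell wall list 9 of 29 rose and 10 fell (9 and 12 without array 1), CWP1, a mannoprotein gene, from 9.17, 9.17 and 9.15 to 6.94, 7.59 and 7.30 (-1.89 ± 0.11), and FLO11, the flocculin of invasive growth, rose by 0.63. In the unfolded protein response and folding in the endoplasmic reticulum 9 of 26 fell and 3 rose (13 and 2 without array 1). KAR2, the lumenal chaperone gene, fell by 0.78 and ERO1, the oxidase for disulfide bonds, fell by 0.89.

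Whether the mutant responded as the reference strain does was tested as the N minus C difference of the mutant minus that of the reference, at the high level (12 arrays, limma as above). The test called 1121 of 5449 genes (20.6%), 542 higher in the mutant (9.95%) and 579 lower (10.6%), against 614 on the 12 arrays alone. Same-numbered N-limited arrays of the 2 strains deviated together, which the test, its errors and the list counts below do not take into account. With the number as a block for those 6 arrays the count was 2467. Without array 1 of both strains, both low in 5′ signal, it was 2069.

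Of the 36 gene lists 22 had more members with a higher difference in the mutant than with a lower one, 12 had fewer and 2 had equal numbers. Of the 17 genes of hydrophilins and stationary phase 16 had a higher difference in the mutant and 0 a lower one, of the 30 stress genes 26 and 0, of the 24 carnitine and beta-oxidation genes 17 and 1, and of the 21 gluconeogenesis genes 15 and 2. Among 17 glycogen genes they were 12 and 1, among 25 oxidative stress enzymes 10 and 1, among 29 cell wall genes 10 and 1 and among 33 autophagy genes 8 and 0. The medians were -0.36 in the mutant and -2.74 in the reference for hydrophilins and stationary phase, 0.20 and -1.06 for stress, -0.58 and -1.47 for beta-oxidation, and -0.42 and -1.84 for gluconeogenesis. ADY2, an acetate transporter gene, was below the floor on all 6 arrays of the mutant (5.44, 5.43 and 5.51 and 5.37, 5.31 and 5.40), while in the reference it lay at 9.29, 9.27 and 9.33 under C limitation and 5.21, 5.21 and 5.31 under N limitation. FBP1, near or below the floor in the mutant (values above), fell in the reference from 7.77, 7.61 and 7.87 to 5.25, 5.30 and 5.35; the fitted differences, which include levels near or below the floor on all but the C-limited reference arrays and so give no exact size, differed by 2.14 ± 0.08 (adjusted p = 1.06e-12). SPS100, a spore wall gene, was at 5.96, 5.87 and 5.96 and 6.63, 6.23 and 6.22 in the mutant and fell from 10.43, 10.39 and 10.38 to 6.54, 5.93 and 6.02 in the reference (difference 4.66 ± 0.19). Within the mutant its rise was no longer called without array 1. TKL2 and GND2, isoenzymes of the pentose phosphate pathway, stood at 0.08 and -0.11 in the mutant and -3.93 and -3.39 in the reference (differences 4.01 ± 0.17 and 3.28 ± 0.14). In these 5 genes the C-limited arrays of the mutant lie below those of the reference. MLS1 rose by 3.72 in the mutant and by 1.06 in the reference (2.66 ± 0.17), and ICL1, at 0.01 in the mutant, fell by 2.45 in the reference (2.46 ± 0.17).

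**Figure D4:**
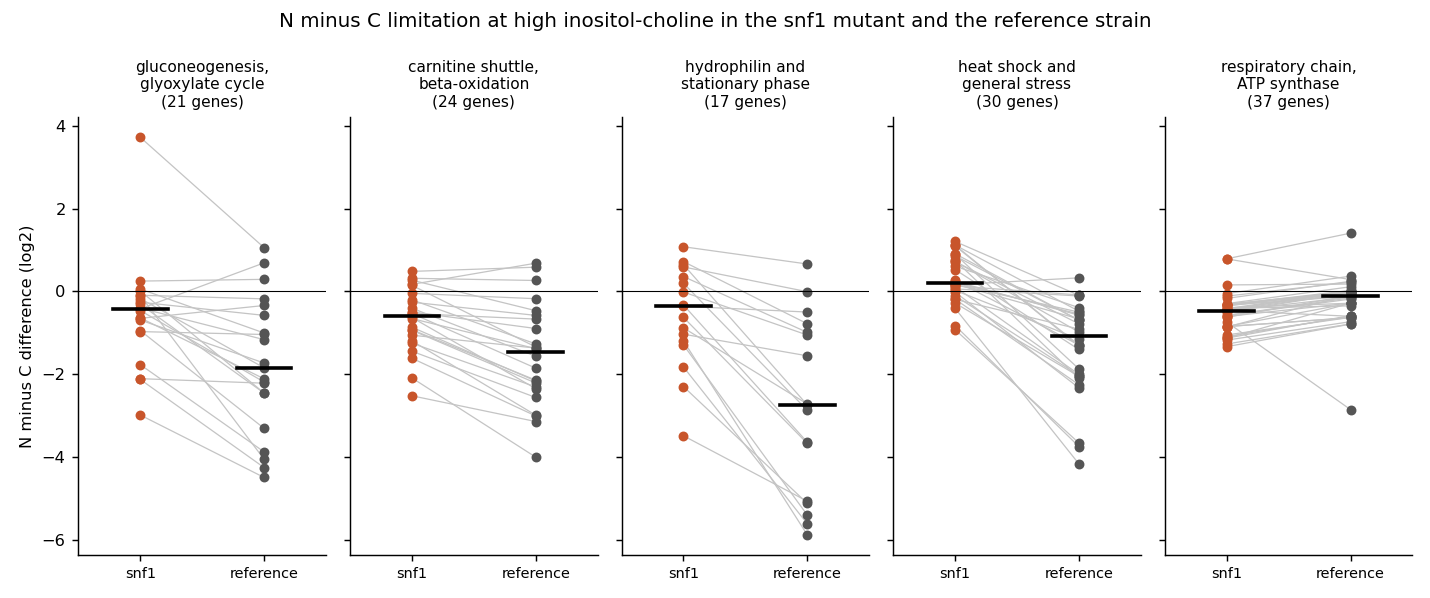
N minus C difference (log2) at high inositol-choline of the members of 5 gene lists in the snf1 mutant (left of each panel) and the reference strain (right), with a line joining the 2 values of a gene and a bar at the median. By their medians stress, stationary-phase, beta-oxidation and gluconeogenesis genes lie lower in the reference, and respiratory genes lie lower in the mutant.

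In the lists of respiration, amino acid synthesis, protein folding and mating lower differences outnumbered higher ones. Of 37 respiratory subunits 16 had a lower difference in the mutant and 2 a higher one, with medians of -0.47 and -0.12; in the reference 6 were called lower and 6 higher, where 20.9% and 31.4% of all genes were. Of 48 genes of amino acid synthesis under Gcn4 14 had a lower difference and 1 a higher one, with medians of -0.58 and -0.33, and of 26 genes of the unfolded protein response 8 and 1, with medians of -0.25 and 0.07. Of 33 mating genes 9 had a lower difference and 2 a higher one: MFA2 rose by 1.37 in the mutant and by 2.54 in the reference (-1.17 ± 0.09). DIP5 rose by 1.80 and 3.84 (-2.04 ± 0.16), and HXT7 fell by 2.88 in the mutant and by 1.06 in the reference (-1.82 ± 0.14). Of the 33 permeases 7 had a higher and 5 a lower difference in the mutant, of the 8 allantoin genes 1 and 1, and DAL5 stood at 4.75 and 4.805 in the strains (difference -0.05 ± 0.10, adjusted p = 0.806). The other strain differences given for single genes were called, with and without array 1 of both strains.

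Whether the level of inositol and choline bears on the response of the mutant was tested as the N minus C difference at the high level minus that at the low level (12 arrays). It called 819 genes, 488 higher at the high level (8.96%) and 331 lower (6.07%), with no pairing used. Without array 1 of the N-limited mutant at the high level the count was 858. It was 1787 when array 1 of the N-limited reference, which enters only through the shared spread, was left out too. Fitted on the 12 arrays alone the count was 814, and 2142 without array 1 of the N-limited mutant. The mutant arrays of the 2 levels also differ in RNA quality. Their 3′ minus 5′ signal was 0.68 to 0.84 (log2) at the low level and 1.06 to 2.63 at the high one. Array quality and level thus move together, also without array 1, and their parts cannot be told apart. A further difference lies in a spiked control. The mean of the dap probe sets was 5.55 to 5.93 (log2) on the 6 mutant arrays at the low level, 6.78 to 7.28 on the C-limited arrays at the high level and 5.72, 6.75 and 6.84 on the N-limited ones, and its part in the result was not tested.

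Genes of protein folding and of ergosterol synthesis differed with the level. Of 26 genes of the unfolded protein response 15 had a lower difference at the high level and 0 a higher one, with medians of -0.25 at the high and 0.37 at the low level; at the low level 20 were called higher and 0 lower, against 15.3% and 15.3% of all genes. SIL1, an exchange factor for Kar2, fell by 0.70 at the high level (7.78, 7.77 and 7.77 to 6.79, 7.22 and 7.21) and rose by 1.31 at the low one (7.63, 7.56 and 7.65 to 8.84, 8.95 and 8.98), a difference of -2.01 ± 0.16 (adjusted p = 5.06e-08). ULI1 fell by 1.32 and rose by 1.47 (-2.79 ± 0.09), and MCD4, of GPI anchor synthesis, fell by 0.68 and rose by 0.96 (-1.64 ± 0.09). Of 29 ergosterol genes 13 had a lower difference and 1 a higher one, with medians of -0.47 and 0.08: CYB5 fell at the high level and stood at 0.21 at the low one (-1.28 ± 0.11). PHO84 fell from 7.52, 7.58 and 7.42 to 6.35, 6.197 and 6.29 at the high level and rose from 8.59, 8.59 and 8.61 to 9.79, 10.01 and 10.07 at the low one (-2.59 ± 0.10, adjusted p = 3.16e-13).

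Carbon genes differed with the level as well. MLS1, which rose by 3.72 at the high level, rose by 0.48 at the low one (7.38, 7.87 and 7.67 to 8.18, 8.08 and 8.10), a difference of 3.24 ± 0.17. ICL1 and MDH2, cytosolic malate dehydrogenase, fell by 2.16 and 1.86 at the low level and stood at 0.01 and -0.46 at the high one (2.17 ± 0.17 and 1.40 ± 0.12). CRC1 and YAT1 of the carnitine shuttle fell by 3.77 and 2.40 at the low level and by 0.49 and 0.53 at the high one (3.27 ± 0.11 and 1.87 ± 0.15). EEB1 rose by 2.73 and 0.56 (2.16 ± 0.13). Of 28 iron genes 13 had a higher difference at the high level and 0 a lower one: FIT2, a cell wall mannoprotein gene for siderophore iron, fell by 0.93 at the high and by 4.11 at the low level (3.18 ± 0.33). Of the 33 permeases 13 had a higher and 2 a lower difference, GAP1 rising by 3.46 and 2.36 (1.11 ± 0.19). Of the 18 tricarboxylic acid cycle genes 6 had a higher difference at the high level and 0 a lower one, with medians of -0.57 and -0.98, and of the 17 glycogen genes 7 and 1, with medians of 0.29 and -0.04. The level differences given for single genes were called with and without array 1 of the N-limited mutant.

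**Figure D5:**
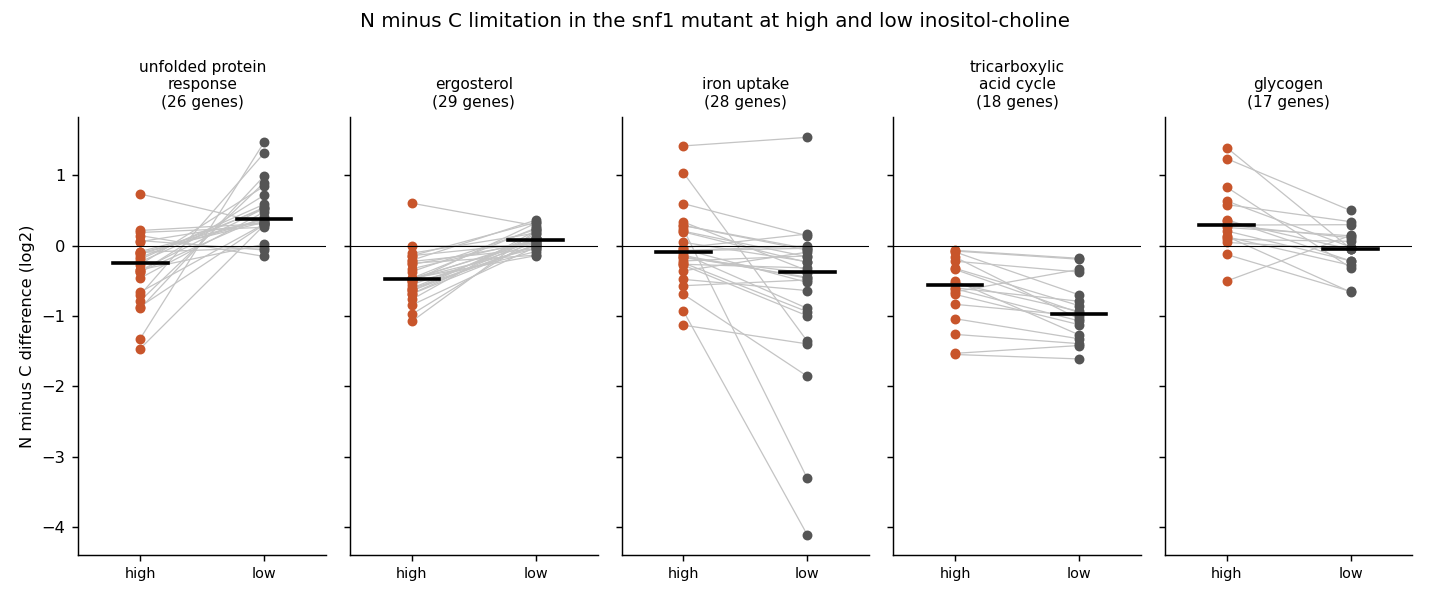
N minus C difference (log2) in the snf1 mutant of the members of 5 gene lists at the high level of inositol and choline (left of each panel) and at the low level (right), with a line joining the 2 values of a gene and a bar at the median. Most genes of the unfolded protein response and of ergosterol synthesis lie below 0 at the high and above 0 at the low level.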

How the data were processed

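Affymetrix arrays of 8 groups of 3 were analysed from the deposited value table. Per the submitters' processing notes the authors summarised probe sets with PLIER; the normalisation between arrays is not given in the sources used here. The deposited values are on a log scale taken as log2 from their range (4.82 to 13.25), with column medians of 5.93 to 6.00. Of 10928 probe sets 7244 had 1 gene symbol in the platform annotation, 1 several and 3683 none, and 5498 matched S. cerevisiae genes of RefSeq, with 12 symbols updated. For 47 genes with several probe sets the one with the highest mean over 24 arrays was kept, leaving 5449 genes. As these are intensities of arrays, their number limits the precision.

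Group means of all 24 arrays were fitted by lmFit and eBayes of limma 3.58.1 under R 4.3.3, leaving 16 residual degrees of freedom, with Benjamini-Hochberg adjustment over 5449 genes and a threshold of 0.05. The procedure was tested on simulated data with independent noise and the same spread of a gene on all arrays. The simulation left out the larger scatter of the N-limited high arrays and their pairing between strains, so it does not test their effect. No gene was left out for a low level; a gene below the floor on all arrays of a group has only a bound there. Genes were named if they were among the 15 largest rises or falls with arrays that do not overlap, in a nitrogen or carbon list, among the 5 lowest adjusted p per direction of another list or the 10 per direction of an interaction, or one of SNF1, INO1, CHO1, OPI3, ITR1 and PHO84. The 36 lists and the members were chosen with earlier results of these data known.

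Deviations from the group mean of same-numbered N-limited arrays of the 2 strains at the high level correlated at 0.90, 0.78 and 0.87, from the titles' numbers, and were judged to be paired. Those of the N-limited and C-limited mutant did so at 0.12, 0.07 and 0.09 at the high level, and were not, and at 0.17, 0.46 and 0.39 at the low level, and were. The main fits, which gave the calls, list counts and errors of the results, used no pairing. It entered only alternative fits with a replicate block. Alternatives changed the probe sets, scaling, array weights, samples in the fit, block and array quality.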

Additional observations from a re-analysis of the deposited data

Results flagged for a closer look

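The N minus C response differed between the strains in 1121 genes and between the levels of inositol and choline in 819, by interaction terms of the same fit. Between the strains (snf1 minus reference, log2) the named genes differed by 4.66 for SPS100, 4.01 for TKL2, 3.28 for GND2, 2.66 for MLS1, 2.46 for ICL1 and 2.14 for FBP1, a fitted value with no exact size because FBP1 was near or below the floor in 3 of the 4 groups, and by -2.04 for DIP5, -1.82 for HXT7 and -1.17 for MFA2.

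Between the levels in the mutant (high minus low, log2) they differed by 3.27 for CRC1, 3.24 for MLS1, 3.18 for FIT2, 2.17 for ICL1, 2.16 for EEB1, 1.87 for YAT1, 1.40 for MDH2 and 1.11 for GAP1. Lower at the high level were ULI1 by -2.79, PHO84 by -2.59, SIL1 by -2.01, MCD4 by -1.64 and CYB5 by -1.28. MLS1 and ICL1, which share the glyoxylate bypass, thus differed in both tests. All these calls held without array 1 of the N-limited mutant at the high level (for the strains, also without array 1 of the N-limited reference), and no value moved by over 1.5 times.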

How the results depend on the processing

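The count of 2650 genes was within 1.5 times under the other alternatives tried and was 1656 when the 6 arrays were fitted alone and 1156 when a replicate block was added to that fit. Without array 1 the 6-array fit gave 3448. With the block on all 24 arrays it was 2769. Leaving out 1 array at a time gave 2270 to 2818. The strain interaction (1121) gave 2342 with array weights, 2285 with the 3′ minus 5′ signal as a covariate, 614 on its 12 arrays, 664 on them with a replicate block, 2069 without the pair of arrays low in 5′ signal and 2467 with a replicate block for the N-limited high arrays, and 946 to 1507 with 1 array left out. The level interaction (819) gave 2449 with array weights, 1762 with the covariate, 1787 without that pair and 2142 on its own arrays without array 1, 700 with a replicate block for the low-level mutant arrays, and 605 to 1172 with 1 array left out; it could not be fitted without the mutant's N-limited arrays at the low level. The cause of these changes was not tested. The fits on 5 or 11 arrays without array 1 and the blocks for the N-limited high arrays and the low-level mutant arrays were chosen after seeing the data.

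Of 147 genes named as called, ATP2, ATP3, COX4, HSP26, RIP1 and SPS100 were not called without array 1, and ATP2, ATP3, COX4, HSP26, RIP1, GDH1, OPI3 and STE3 not on the 6 arrays alone. GLN1, not called in the main fit, turned in sign and was called higher in some alternative fits. There it stood at 0.23 with array weights, 0.40 with the covariate, and 0.32 both without the pair low in 5′ signal and on the compared arrays without array 1. Signal near background limits what can be said of 214 genes below the floor in both groups, 58 under C limitation alone and 23 under N limitation alone.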

Other observations

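Several of the largest changes lay outside the gene groups described above. WSC4, a cell wall stress sensor gene, rose from 5.82, 5.93 and 5.86 to 8.43, 9.20 and 9.17 (3.06 ± 0.18, 8.35-fold), and YBL029W, a gene without an assigned role, by 2.71. ATO2 and ATO3, transporter genes linked to ammonium export, fell 9.79-fold and 6.05-fold, from 9.63, 9.65 and 9.59 to 6.61, 6.34 and 6.05 and from 9.15, 9.22 and 9.16 to 6.81, 6.48 and 6.45. NCA3, a gene linked to mitochondrial ATP synthase expression, was 4.53-fold lower. In these 5 genes the N-limited and C-limited arrays do not overlap, and each was also called without array 1 and on the 6 arrays alone. DED1, an RNA helicase gene chosen after its values were seen, was the remaining gene called at 2-fold or more that was not called without array 1.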
